A study of Caenorhabditis elegans with 25 samples.

Results

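UDP-glucuronosyltransferase (ugt) genes encode enzymes of the endoplasmic reticulum that attach a sugar, taken from a UDP-sugar, to small lipophilic molecules and so make them soluble enough to be exported. They act in the conjugation step of detoxification, after oxidation by cytochrome P450 enzymes and beside glutathione transferases. Caenorhabditis elegans has a large ugt family, much of it active in the intestine, and the worm is known to attach glucose to foreign compounds. The members described here are the numbered ugt genes with at least 10 counts in at least 5 of the 25 libraries, with ugt-64 set aside. Of 66 numbered ugt genes in the count table of 42532 genes, 61 met this rule. The rule used the size of counts, apart from ugt-64, which was left out by name with its earlier results known and has 10 or more counts in all 25 libraries. ugt-64 averaged 24.0 ± 3.93 CPM (counts scaled to library size) in flp-17oe, 60.3 ± 6.38 in flp-17oe egl-6(lof), 60.3 ± 4.91 in egl-6(lof) and 79.2 ± 3.69 in flp-17(lof), against 24.1 ± 4.32 in N2 (SD, n = 5 each). Its highest library in flp-17oe and N2, at 31.1 CPM, lay below its lowest in the 3 mutant genotypes, at 53.5 CPM, so no statement on the 61 members below extends to ugt-64.

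Poly(A) RNA of whole worms was sequenced on day 1 of adulthood, from 500 to 600 animals per sample and 5 replicates of each of 5 genotypes. The flp-17oe strain (AEF148) carried the extrachromosomal array ssrEx1193, in which the flp-17 promoter drives flp-17 fused to GFP and the muscle promoter of myo-3 drives mCherry. The flp-17oe egl-6(lof) strain (AEF237) carried an array of the same description together with egl-6(n4537) on chromosome X. The egl-6(lof) strain (AEF236) carried egl-6(n4537) alone, the flp-17(lof) strain (AEF243) carried flp-17(n4894) on chromosome IV, and N2 was the wild type. All strains other than N2 had been outcrossed 6 times into N2, and all animals were fed OP50-1 bacteria. flp-17 codes for FMRFamide-like peptides made by the sensory neurons BAG, and egl-6 encodes their receptor on the egg-laying HSN neurons. An array of this kind is not inherited by every animal. Array animals were sorted for the fluorescent marker 24 hours before collection, whereas animals of the other 3 genotypes were only washed and moved to fresh plates, so the effects of array and sorting cannot be told apart. Batch 1 holds replicate 1 of every genotype and batch 2 the other 4, and the labels do not say whether replicates were separate cultures. The p-values therefore measure the spread between these samples, which may be technical.

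A library held between 25164923 and 99717657 counts in total. The counts of the targeted genes followed the labels: flp-17 averaged 188 ± 27 CPM in flp-17oe, 232 ± 29.4 CPM in flp-17oe egl-6(lof) and 0.310 ± 0.0607 CPM in flp-17(lof), against 4.62 ± 0.459 CPM in N2 (SD, n = 5 each). egl-6 averaged 2.89 ± 0.380 CPM in flp-17oe egl-6(lof) and 2.81 ± 0.496 CPM in egl-6(lof), against 6.03 ± 0.629 CPM in N2. The library of flp-17(lof) replicate 1 stood apart from the others, as it had 25164923 counts, a scaling factor of 0.740 and the lowest summed ugt level, 520 CPM. Leaving it out added no changed ugt gene to the comparison of flp-17(lof) with N2. The library was also part of the fit for the other comparisons. Without it, changed ugt genes between flp-17oe and N2 went from 11 to 14, with ugt-17, ugt-21 and ugt-52 gained. All changed genes there went from 1018 to 1416. Between the array strains, ugt-47 and ugt-62 were gained, where 0 had changed. Between the egl-6(lof) strains with and without the array, ugt-60 was lost and ugt-25 gained, so the count stayed at 16.

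All 61 members are annotated as protein-coding. Chromosome V holds 36 of them, chromosome IV 12, chromosome I 5, chromosome X 4, chromosome III 3 and chromosome II 1. Of the members, 26 lie in 9 tandem groups, in which ugt genes follow each other with no other protein-coding gene between them. At the edge of the rule, ugt-33 had 10 or more counts in 5 libraries with a highest count of 13, and ugt-27 in 7 libraries. Just outside, ugt-38 had 10 or more counts in 2 libraries with a highest count of 15, and ugt-10, ugt-34 and ugt-35 reached at most 6, 5 and 1 counts. ugt-33 did not pass the filter on low counts, so 60 of the 61 members were tested among 14634 genes.

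The family spanned a wide range of levels, and a few genes carried much of it. In N2, 18 members averaged over 10 CPM, 27 between 1 and 10 CPM and 16 under 1 CPM, with a median of 3.10 CPM. Per kilobase of exon, the 6 members with the highest mean level over all genotypes, ugt-62, ugt-22, ugt-63, ugt-58, ugt-12 and ugt-47, made up 46.8% of the summed level of all 61. In N2, ugt-22 had 34.5 ± 3.83 CPM per kilobase and ugt-62 had 34.0 ± 2.18 (SD, n = 5 each), a difference smaller than the spread between libraries. ugt-63 had 25.4 ± 2.84, ugt-58 had 23.4 ± 0.618 and ugt-12 had 22.6 ± 2.06 CPM per kilobase in N2, and these 3 did not differ beyond their spread. ugt-47 followed at 17.1 ± 0.824 CPM per kilobase. ugt-22 has been linked in C. elegans to tolerance of the anthelmintic albendazole. ugt-58 and ugt-12 changed in no comparison, and ugt-58 averaged 39.8 ± 2.51 CPM in flp-17oe, 36.9 ± 1.18 in flp-17oe egl-6(lof), 39.3 ± 1.86 in egl-6(lof), 41.1 ± 3.27 in flp-17(lof) and 40.2 ± 1.06 in N2.

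Summed over the 61 members, the ugt level was 631 ± 34.9 CPM in flp-17oe, 585 ± 33.1 CPM in flp-17oe egl-6(lof), 615 ± 31.7 CPM in egl-6(lof), 593 ± 42.4 CPM in flp-17(lof) and 586 ± 13.8 CPM in N2 (SD, n = 5 each). Each flp-17oe library lay above every N2 library, with a lowest value of 604 CPM in flp-17oe and a highest of 602 CPM in N2. A sum is weighted to abundant genes. Among them, ugt-62 averaged 82.1 CPM in flp-17oe and 57.5 CPM in N2, and ugt-44 averaged 30.2 and 16.1 CPM. Of the 60 members tested between these genotypes, 35 had a positive and 25 a negative log2 change. The flp-17oe egl-6(lof) libraries, from 544 to 618 CPM, overlapped the egl-6(lof) libraries, from 592 to 670 CPM. The sums were not tested.

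**Figure D1:**
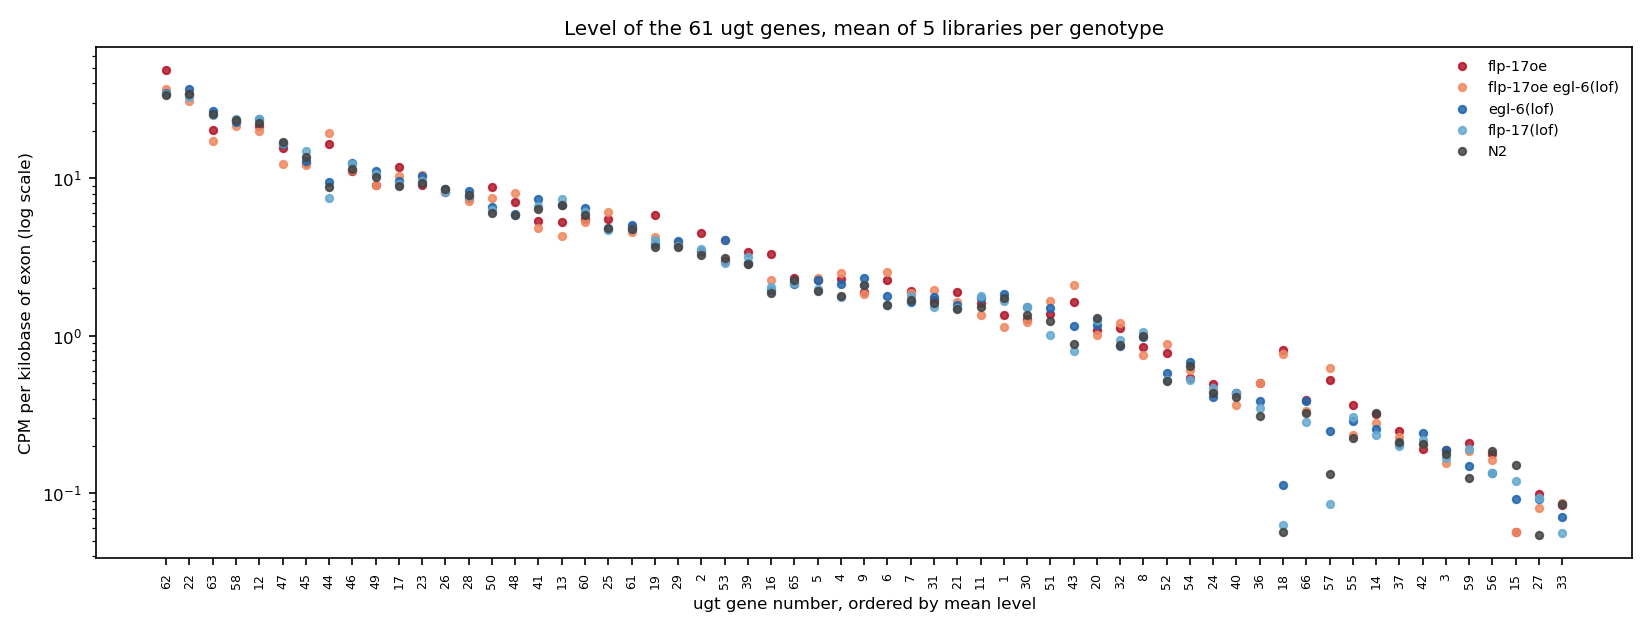
Mean level of each of the 61 ugt genes per genotype (CPM per kilobase of exon, log scale; 5 libraries per genotype; genes on the x axis by falling mean level). The genotypes lie close together for most genes, while ugt-18 and ugt-57 stand out with the points of both array strains well above those of egl-6(lof), flp-17(lof) and N2.

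The first comparison set flp-17oe against N2 and so addressed what the array and its sorting change in animals with the receptor. In flp-17oe, 11 of 60 ugt genes rose and 0 fell. By edgeR's quasi-likelihood test 18.3% of the tested members rose, beside 6.96% of all 14634 genes that changed, 4.78% that rose and 2.18% that fell. The genes that rose were ugt-18, ugt-50, ugt-16, ugt-6, ugt-43, ugt-57, ugt-62, ugt-44, ugt-48, ugt-19 and ugt-36. At an unadjusted p under 0.05, 19 members were higher and 4 lower, beside 21.4% of all genes in either direction. DESeq2 called 14 members, but its share over all genes is not given here, so that count cannot be weighed against all genes. Without flp-17oe replicate 5 the count over all genes was 673 in place of 1018, and 8 members were called. The median log2 change over the 60 tested members was 0.07, beside 0.00464 over all genes. All flp-17oe libraries lay above all N2 libraries for 11 of the 60 tested members and below them for 0, beside 4.98% of all genes above and 3.68% below. These 11 were the called genes other than ugt-62 and ugt-19, together with ugt-52 and ugt-32, which were not called.

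The second comparison set flp-17oe egl-6(lof) against egl-6(lof) and so made the same contrast in animals without the receptor. Here 8 ugt genes rose and 8 fell, by edgeR's quasi-likelihood test. That is 26.7% of the 60 tested, beside 14.4% of all genes, of which 6.02% rose and 8.38% fell. The genes that rose were ugt-18, ugt-48, ugt-6, ugt-43, ugt-44, ugt-57, ugt-32 and ugt-52. The genes that fell were ugt-1, ugt-41, ugt-63, ugt-47, ugt-22, ugt-49, ugt-60 and ugt-13. At an unadjusted p under 0.05, 10 members were higher and 13 lower, beside 24.6% of all genes in either direction. DESeq2 called 19 members, again without its share over all genes. The median log2 change over the tested members was -0.03, beside 0.02 over all genes. All flp-17oe egl-6(lof) libraries lay above all egl-6(lof) libraries for 4 of the 60 tested members (ugt-18, ugt-48, ugt-6 and ugt-44), beside 3.35% of all genes. They lay below them for 5 (ugt-1, ugt-41, ugt-63, ugt-47 and ugt-22), beside 4.84% of all genes.

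**Figure D2:**
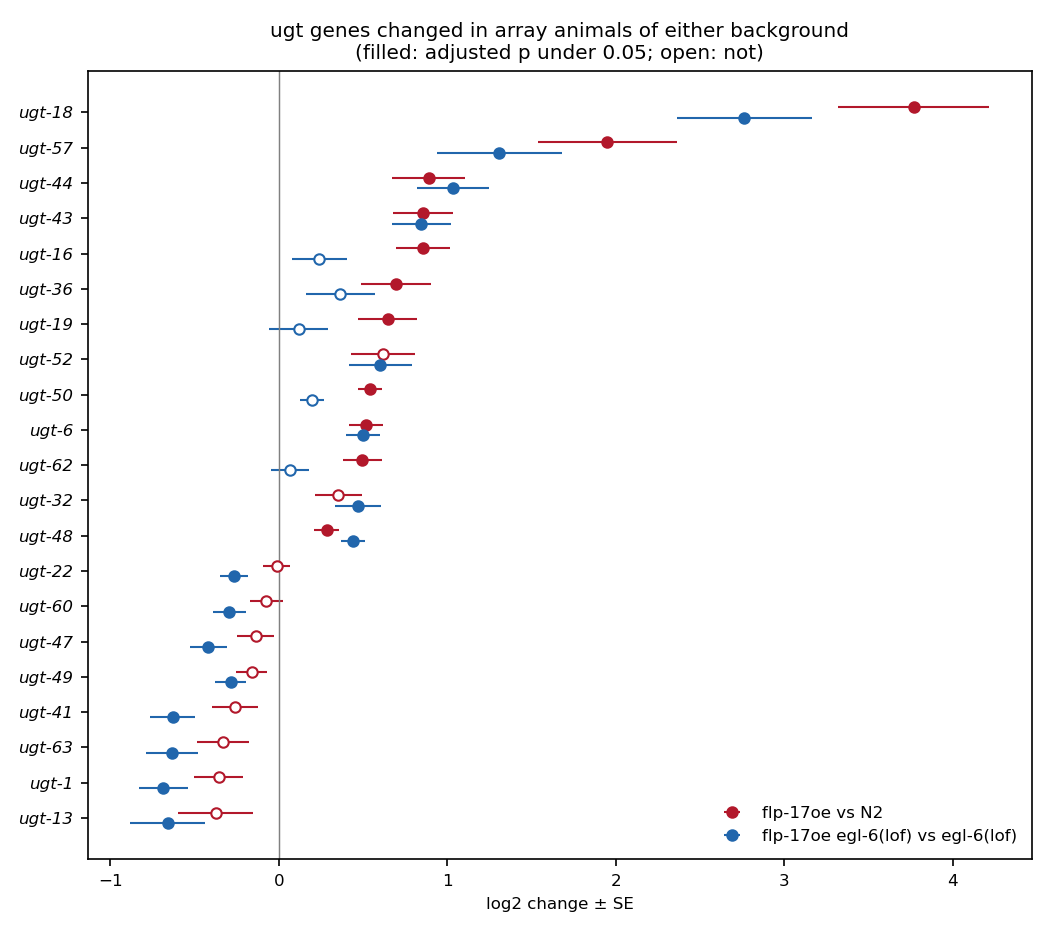
Log2 change ± SE of the 21 ugt genes that changed in either array comparison, with flp-17oe against N2 in red and flp-17oe egl-6(lof) against egl-6(lof) in blue (filled points have an edgeR adjusted p under 0.05). ugt-18 lies farthest right at 3.77 and 2.76, and the 8 genes at the bottom, from ugt-22 to ugt-13, are filled only in blue.

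The array comparisons share no library, but both come from the same fit with a common estimate of the spread. Same-numbered libraries of the array strains also correlated, from 0.133 to 0.573, so the comparisons are not fully independent. The 6 genes that rose in both were ugt-18, ugt-57, ugt-43, ugt-44, ugt-6 and ugt-48. They are 54.5% of the 11 that rose in flp-17oe and 75% of the 8 that rose in flp-17oe egl-6(lof). Over all genes tested, 419 rose in both, which is 59.9% and 47.6% of the genes that rose in the 2 comparisons. No member could fall in both comparisons, as 0 fell in flp-17oe, whereas 202 of all genes tested fell in both. None of the members was called in opposite directions, beside 1 of all genes tested.

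ugt-18 showed the largest change of the family. It passed the filter on low counts only through the array libraries, so its place among the tested genes depended on the groups where it was high. Without the array it reached at most 0.174 CPM in N2, 0.161 CPM in flp-17(lof) and 0.297 CPM in egl-6(lof). The counts of called and of not overlapping members above include it. The gene lies on chromosome V at 12820260 to 12822778 on the plus strand (WBcel235, the assembly also called ce11), next to ugt-16 and ugt-15. Its libraries held 1.54, 1.26, 0.861, 1.81 and 1.39 CPM in flp-17oe, against 0.119, 0.0911, 0.0224, 0.0759 and 0.174 CPM in N2. Each flp-17oe library was far above each N2 library, and the N2 values rest on 1 to 10 counts per library. The log2 change was 3.77 ± 0.45 (SE; edgeR adjusted p = 8.67e-06), with a ratio of mean CPM of 14.2. In the receptor mutant background the 5 values were 1.54, 0.934, 0.603, 1.81 and 1.64 CPM in flp-17oe egl-6(lof), against 0.297, 0.182, 0.0402, 0.184 and 0.257 CPM in egl-6(lof). The genotypes again did not overlap, and the log2 change was 2.76 ± 0.40 (edgeR adjusted p = 8.84e-05), with a ratio of mean CPM of 6.79. The interaction, which is the array's log2 change in the egl-6(lof) background minus that in the wild-type background, was -1.0 ± 0.62 for ugt-18 and was not significant (edgeR adjusted p = 0.819).

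ugt-57, on chromosome X at 6991727 to 6994162, was a second low-level gene that rose. Its libraries held 0.446, 1.55, 0.952, 0.875 and 1.32 CPM in flp-17oe, against 0.356, 0.182, 0.426, 0.152 and 0.174 CPM in N2. All flp-17oe libraries lay above all N2 libraries, though replicate 1 of flp-17oe did so by little. The log2 change was 1.95 ± 0.41 (edgeR adjusted p = 0.00423). The flp-17oe egl-6(lof) libraries held 0.520, 1.01, 0.603, 1.23 and 2.74 CPM, against 0.223, 0.676, 0.341, 0.621 and 0.570 CPM in egl-6(lof). These groups overlapped, replicate 5 of flp-17oe egl-6(lof) was the highest of all, and the log2 change was 1.31 ± 0.37 (edgeR adjusted p = 0.0177). The call in the receptor mutant background was lost without that library, without egl-6(lof) replicate 3 and without the batch term. The call of ugt-57 in flp-17oe was lost with replicate number 2 or 4 left out of every genotype.

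ugt-43 and ugt-44 are neighbours on the plus strand of chromosome IV, at 10464588 to 10467297 and 10469741 to 10471899, and both rose in both comparisons. ugt-43 had 2.26, 3.17, 3.38, 3.19 and 3.83 CPM in flp-17oe, against 1.95, 1.25, 1.77, 1.86 and 1.74 CPM in N2. The groups did not overlap, and the log2 change was 0.86 ± 0.18 (edgeR adjusted p = 0.00391). In the receptor mutant background ugt-43 had 1.86, 4.45, 4.30, 4.55 and 5.23 CPM in flp-17oe egl-6(lof), against 1.24, 2.22, 2.41, 2.7 and 2.63 CPM in egl-6(lof). Replicate 1 was the lowest library of each of these genotypes, so that the groups overlapped, and the log2 change was 0.85 ± 0.17 (edgeR adjusted p = 0.00157). ugt-44 was the more abundant of the pair, at 30.2 ± 7.16 CPM in flp-17oe and 16.1 ± 4.25 CPM in N2. Its libraries held 21.9, 24.4, 30.2, 38.5 and 36.1 CPM in flp-17oe, against 18.7, 8.85, 16.2, 19.5 and 17.3 CPM in N2. They held 22.7, 28.8, 30.8, 47.5 and 47.5 CPM in flp-17oe egl-6(lof), against 15.6, 12.8, 16.2, 18.8 and 22.3 CPM in egl-6(lof). Array and non-array libraries of ugt-44 overlapped in neither comparison, with log2 changes of 0.89 ± 0.22 (edgeR adjusted p = 0.0120) and 1.04 ± 0.22 (edgeR adjusted p = 0.00170). The call of ugt-44 in flp-17oe was lost with replicate number 3, 4 or 5 left out of every genotype. That of ugt-43 in flp-17oe was lost without replicate number 5.

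ugt-6 and ugt-48 rose by less but with narrow spread. ugt-6, in a tandem group of 4 on chromosome V, had 4.14, 3.49, 3.88, 4.18 and 3.56 CPM in flp-17oe, against 3.34, 2.41, 2.40, 2.52 and 2.78 CPM in N2. It had 3.59, 4.49, 4.70, 4.90 and 4.01 CPM in flp-17oe egl-6(lof), against 3.29, 2.64, 3.03, 3.02 and 3.40 CPM in egl-6(lof). The groups overlapped in neither comparison, and the log2 changes were 0.52 ± 0.10 and 0.50 ± 0.10 (edgeR adjusted p = 0.00201 and 0.00116). ugt-48, a single gene on chromosome V at 5545669 to 5548062, had 11.0, 10.2, 12.1, 11.6 and 12.5 CPM in flp-17oe, against 9.61, 8.59, 9.58, 9.61 and 9.89 CPM in N2. It had 11.4, 13.9, 13.4, 13.1 and 13.4 CPM in flp-17oe egl-6(lof), against 10.3, 8.85, 9.52, 9.41 and 9.83 CPM in egl-6(lof). The groups overlapped in neither comparison, although the lowest flp-17oe library was below the highest egl-6(lof) library, and the log2 changes were 0.28 ± 0.07 and 0.44 ± 0.07 (edgeR adjusted p = 0.0190 and 0.000294). ugt-48 overlaps cft-1 on the opposite strand, which averaged 1.84 CPM and was called in neither comparison. The call of ugt-48 in flp-17oe was lost without flp-17oe replicate 3 or 5 and without N2 replicate 2.

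**Figure D3:**
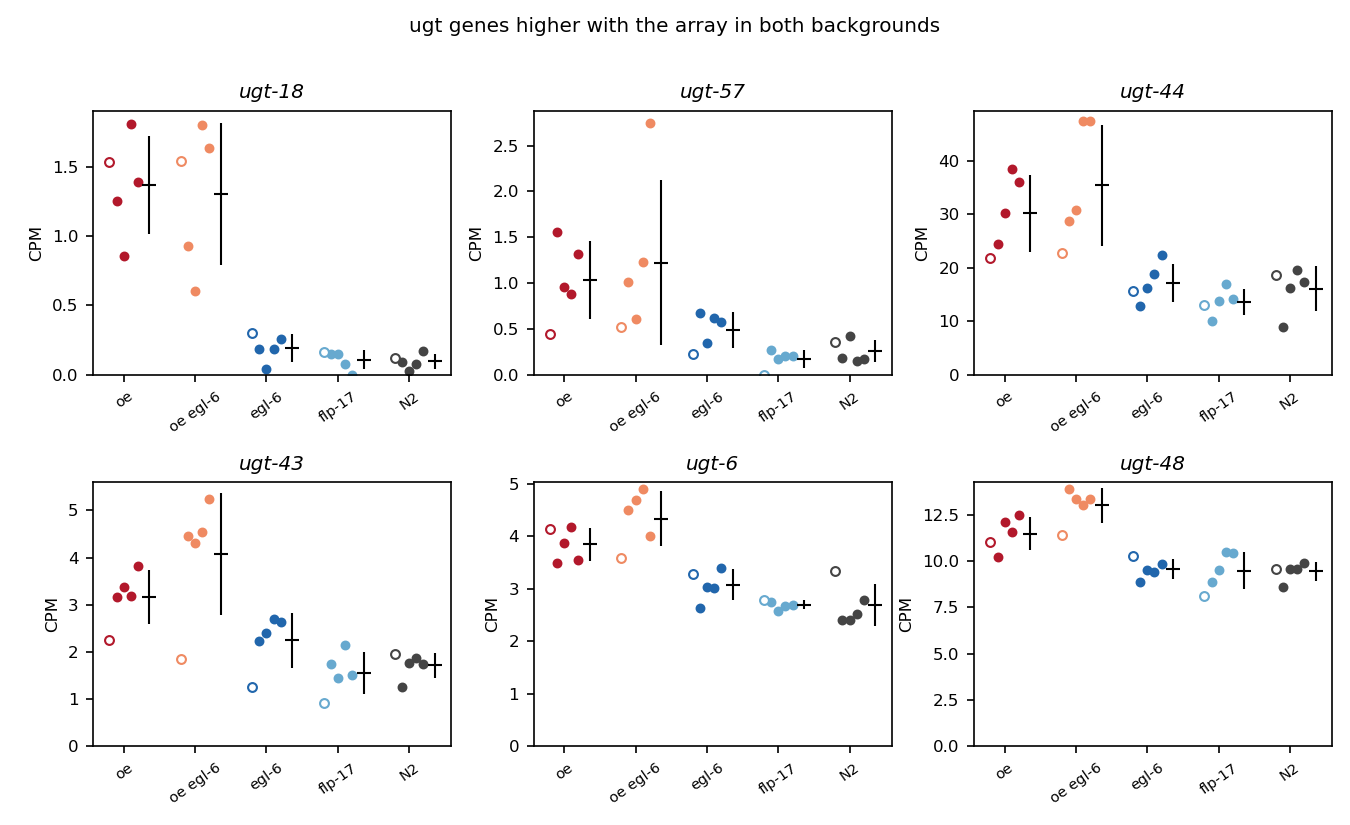
CPM per library of the 6 ugt genes that rose in both array comparisons, by genotype (oe, flp-17oe; oe egl-6, flp-17oe egl-6(lof); egl-6, egl-6(lof); flp-17, flp-17(lof); N2). Open circles are batch 1, filled circles batch 2, and the black mark is the mean ± SD of 5 libraries; the array libraries of ugt-18 lie between 0.603 and 1.81 CPM, above all libraries without the array.

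The other 5 genes that rose in flp-17oe were not called in flp-17oe egl-6(lof). ugt-50, on chromosome X at 12691573 to 12695652, had the smallest SE among them, with 16.4, 17.7, 18.9, 17.5 and 17.7 CPM in flp-17oe, against 12.9, 10.9, 12.6, 11.2 and 13.0 CPM in N2. Its groups were clearly apart, and the log2 change was 0.54 ± 0.07 (edgeR adjusted p = 4.13e-05). ugt-50 averaged 15.1 ± 1.20 CPM in flp-17oe egl-6(lof) and 13.2 ± 1.27 CPM in egl-6(lof). A microRNA gene, mir-62, lies within ugt-50 on the same strand. ugt-16, the neighbour of ugt-18, had 5.77, 5.79, 7.43, 4.85 and 5.90 CPM in flp-17oe, against 4.79, 2.49, 3.07, 2.90 and 3.53 CPM in N2. The lowest flp-17oe library was just above the highest N2 library, and the log2 change was 0.86 ± 0.16 (edgeR adjusted p = 0.00149). ugt-16 averaged 4.08 ± 0.859 CPM in flp-17oe egl-6(lof) and 3.53 ± 1.14 CPM in egl-6(lof).

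ugt-62, which had the highest level per kilobase averaged over all genotypes but not in N2, had 55.8, 79.2, 99.5, 85.3 and 90.5 CPM in flp-17oe, against 54.3, 53.6, 60.8, 56.9 and 61.7 CPM in N2. Replicate 1 of flp-17oe lay within the N2 range and the other 4 above it, and the log2 change was 0.50 ± 0.11 (edgeR adjusted p = 0.00789). This call was lost with replicate number 3, 4 or 5 left out of every genotype. In flp-17oe egl-6(lof) ugt-62 averaged 62.5 ± 10.4 CPM, against 59.0 ± 3.12 CPM in egl-6(lof). ugt-19 had a log2 change of 0.65 ± 0.18 between flp-17oe and N2 (edgeR adjusted p = 0.0258), with means of 9.88 ± 2.72 CPM in flp-17oe and 6.22 ± 0.804 CPM in N2. The call of ugt-19 was lost without flp-17oe replicate 3 or 5 and without N2 replicate 2, 3 or 4. ugt-36 had a log2 change of 0.70 ± 0.21 (edgeR adjusted p = 0.0451), with means of 0.846 ± 0.115 CPM in flp-17oe and 0.521 ± 0.0692 CPM in N2, and was called in 19 of the 37 alternative settings. The interaction was negative for all 5 of these genes, at -0.34 ± 0.10 for ugt-50, -0.62 ± 0.23 for ugt-16, -0.43 ± 0.16 for ugt-62, -0.53 ± 0.25 for ugt-19 and -0.33 ± 0.29 for ugt-36. None of these differences between backgrounds was significant, with edgeR adjusted p from 0.411 for ugt-50 to 0.895 for ugt-36.

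The 8 genes that fell in flp-17oe egl-6(lof) included 3 of the 6 most abundant members per kilobase, ugt-63, ugt-47 and ugt-22. ugt-63, on chromosome V at 5108180 to 5110772, had 29.1, 13.8, 30.9, 29.0 and 30.9 CPM in flp-17oe egl-6(lof), against 44.6, 35.8, 43.8, 41.8 and 41.6 CPM in egl-6(lof). All flp-17oe egl-6(lof) libraries were below all egl-6(lof) libraries, replicate 2 farthest, and the log2 change was -0.63 ± 0.16 (edgeR adjusted p = 0.00594). ugt-47 had 22.3, 19.4, 20.3, 22.1 and 18.0 CPM in flp-17oe egl-6(lof), against 32.7, 29.0, 26.6, 24.7 and 23.4 CPM in egl-6(lof). The groups did not overlap, and the log2 change of ugt-47 was -0.42 ± 0.11 (edgeR adjusted p = 0.0104), a call lost without egl-6(lof) replicate 1. ugt-22 had 60.7, 67.6, 72.7, 72.6 and 69.8 CPM in flp-17oe egl-6(lof), against 85.4, 83.8, 79.6, 79.0 and 83.3 CPM in egl-6(lof). The groups lay apart, but the step was small at -0.26 ± 0.08 on the log2 scale (edgeR adjusted p = 0.0306), and the call held in 20 of 37 settings.

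ugt-1 and ugt-41 were the fallers whose call held in all 37 alternative settings. ugt-1, on chromosome V at 10395663 to 10397820, had 1.71, 1.73, 1.86, 2.28 and 2.25 CPM in flp-17oe egl-6(lof), against 3.90, 2.44, 3.25, 3.22 and 3.07 CPM in egl-6(lof). No library of one genotype reached the other, and the log2 change of ugt-1 was -0.69 ± 0.15 (edgeR adjusted p = 0.00212). Its tandem neighbour ugt-2 was not called in either array comparison. ugt-41, on chromosome V at 7161068 to 7163595, had 7.60, 9.86, 9.45, 8.39 and 7.81 CPM in flp-17oe egl-6(lof), against 14.3, 15.0, 14.6, 11.9 and 10.8 CPM in egl-6(lof). The groups did not overlap, and the log2 change of ugt-41 was -0.63 ± 0.14 (edgeR adjusted p = 0.00219).

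The remaining fallers were less stable and their groups overlapped. Their edgeR adjusted p ran from 0.0390 for ugt-49 to 0.0485 for ugt-13. ugt-49 averaged 15.0 ± 1.60 CPM in flp-17oe egl-6(lof) and 18.4 ± 3.13 CPM in egl-6(lof), and its call held in 16 of 37 settings. ugt-60 averaged 9.05 ± 1.81 CPM in flp-17oe egl-6(lof) and 11.1 ± 1.73 CPM in egl-6(lof), with a call in 9 of 37 settings. ugt-13 averaged 6.98 ± 2.39 CPM in flp-17oe egl-6(lof) and 11.0 ± 2.61 CPM in egl-6(lof), with a call in 14 of 37 settings. Against N2, all 8 fallers also had a negative log2 change in flp-17oe, from -0.38 for ugt-13 to -0.01 for ugt-22, and none was called there. The interaction was not significant for any of the 8, with edgeR adjusted p from 0.659 for ugt-22 to 0.916 for ugt-13. The 2 genes that rose in flp-17oe egl-6(lof) and were not called in flp-17oe were ugt-32, at 2.00 ± 0.535 CPM in flp-17oe egl-6(lof) and 1.43 ± 0.140 CPM in egl-6(lof), and ugt-52, at 1.49 ± 0.321 CPM in flp-17oe egl-6(lof) and 0.979 ± 0.273 CPM in egl-6(lof). The call of ugt-32 (edgeR adjusted p = 0.0194) was lost without flp-17oe egl-6(lof) replicate 3, and that of ugt-52 (edgeR adjusted p = 0.0287) without flp-17oe egl-6(lof) replicate 2 or egl-6(lof) replicate 1, 3 or 5. In flp-17oe against N2 their log2 changes were 0.35 for ugt-32 and 0.62 for ugt-52, beside 0.47 and 0.60 in the receptor mutant background, and the interaction was not significant for either (edgeR adjusted p = 0.936 and 0.996).

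**Figure D4:**
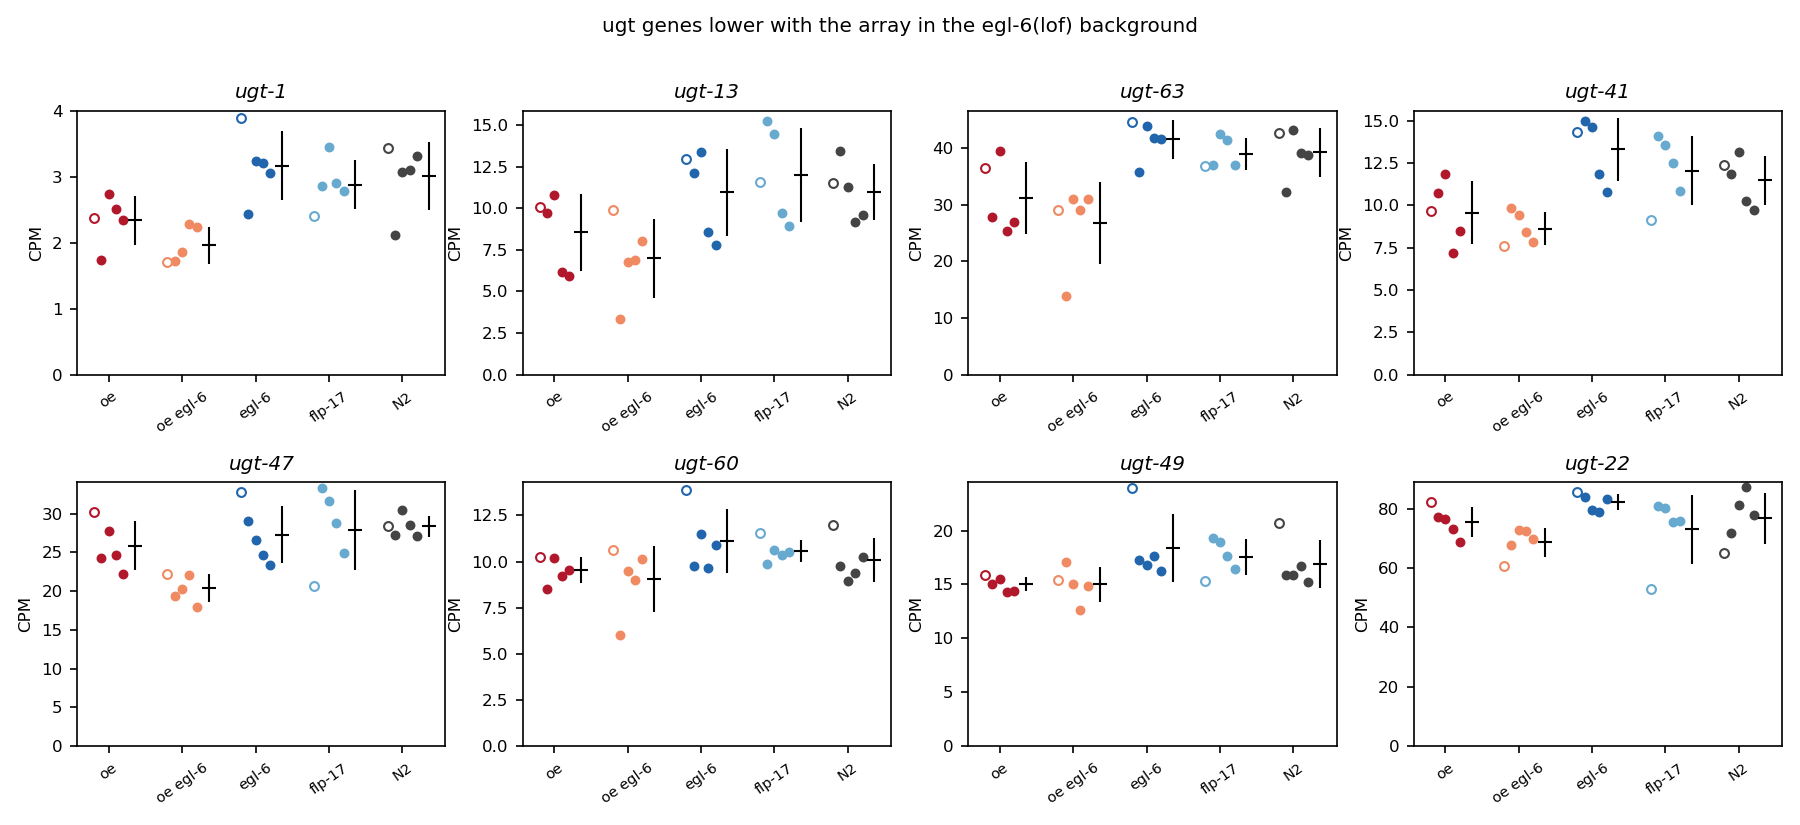
CPM per library of the 8 ugt genes that fell in flp-17oe egl-6(lof) relative to egl-6(lof), with genotypes and symbols as in the plot of the 6 genes that rose. The 5 flp-17oe egl-6(lof) libraries of ugt-41 lie between 7.60 and 9.86 CPM, below all egl-6(lof) libraries at 10.8 to 15.0 CPM.

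Within batch 1, which has 1 library per genotype and no replicate check, the log2 ratio of CPM had the sign of the reported change for 10 of the 11 risers in flp-17oe. The exception was ugt-19, at -0.23 in batch 1 and 0.85 in batch 2. For the 16 genes changed in flp-17oe egl-6(lof) the sign in batch 1 was that of the reported change in 16 of 16. The batch 1 libraries were also in the fit that called these genes, so agreement in sign is no separate check. For flp-17oe over N2 the log2 ratio of ugt-57 was 0.33 in batch 1 and 2.33 in batch 2, that of ugt-43 was 0.22 and 1.04, that of ugt-44 was 0.23 and 1.06, and that of ugt-62 was 0.04 and 0.61. ugt-18 was unlike these, with 3.70 in batch 1 and 3.87 in batch 2. In batch 2 alone, edgeR called 13 members in flp-17oe against N2, with ugt-2, ugt-21 and ugt-52 gained and ugt-36 lost. Over all genes the count there was 1116, in place of 1018. In flp-17oe egl-6(lof) against egl-6(lof), batch 2 alone gave 14 members in place of 16, with ugt-13, ugt-49 and ugt-60 lost and ugt-50 gained. The count over all genes was 2351 in place of 2108.

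Markers of other tissues moved in the same comparisons. Over all genes, 6.96% changed in flp-17oe against N2 and 14.4% in flp-17oe egl-6(lof) against egl-6(lof). Of 14 hypodermis and molting markers, genes of the skin and the cuticle that is renewed in larval molts, 12 rose in flp-17oe against N2 and 13 rose in flp-17oe egl-6(lof) against egl-6(lof). Their summed level ran from 45.9 to 135 CPM in flp-17oe, from 47.8 to 251 CPM in flp-17oe egl-6(lof), from 42.4 to 58.2 CPM in egl-6(lof) and from 36.7 to 46.9 CPM in N2, with none of the 14 at 0 in a genotype. The lowest array values were those of batch 1, at 45.9 CPM in flp-17oe and 47.8 CPM in flp-17oe egl-6(lof), against 52.5 CPM in egl-6(lof) and 46.9 CPM in N2 of the same batch. In that batch, which has 1 library per genotype, ugt-18 stood at 1.54 CPM in both array libraries. It stood at 0.297 CPM in egl-6(lof) and 0.119 CPM in N2. Replicate 5 of flp-17oe egl-6(lof) had both the highest marker sum, 251 CPM, and the highest ugt-57 level, 2.74 CPM. Whether ugt levels follow marker sums across libraries was not tested. Of 7 body wall muscle markers, 5 fell in flp-17oe while 6 fell in flp-17oe egl-6(lof), and their sum ran from 2750 to 3185 CPM in flp-17oe, from 2131 to 2979 CPM in flp-17oe egl-6(lof), from 3740 to 4823 CPM in egl-6(lof) and from 3615 to 4592 CPM in N2. The part of these shifts in the ugt changes was not tested. In RNA of whole animals, fewer cells of a type and less RNA per cell cannot be told apart.

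Of 11 intestine markers, 1 rose in flp-17oe against N2, the intestinal GATA factor gene elt-2. In flp-17oe egl-6(lof) against egl-6(lof), 2 fell. The genes that fell were act-5, an actin of the intestinal brush border, and pept-1, the intestinal peptide transporter. Their log2 changes were -0.41 ± 0.09 and -0.53 ± 0.12 (edgeR adjusted p = 0.00237 and 0.00256). The shares of intestine markers called were 9.09% and 18.2%, near the 6.96% and 14.4% of all genes. The intestine sum ran from 1843 to 2397 CPM in flp-17oe egl-6(lof) and from 1973 to 2686 CPM in egl-6(lof), and from 2109 to 2536 CPM in flp-17oe and 2153 to 2502 CPM in N2, so both pairs of genotypes overlapped, and no marker was at 0. Of 8 sperm markers, 7 fell in flp-17oe egl-6(lof) against egl-6(lof), 0 changed in flp-17oe against N2, and 6 rose in egl-6(lof) against N2. The egl-6(lof) libraries were the high ones, as the sperm sum had a median of 8.91 CPM in flp-17oe, 11.3 CPM in flp-17oe egl-6(lof), 54.8 CPM in egl-6(lof) and 11.3 CPM in N2, with 1 N2 library as high as 61.3 CPM. Of 6 neuron markers 2 rose in flp-17oe while 1 rose in flp-17oe egl-6(lof), which is 33.3% and 16.7%. Of 5 embryo markers tested 0 changed in either. Whether these shifts bear on the ugt genes that fell was not tested.

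In 5 of the 9 tandem groups some members were called and others were not. In the group ugt-18, ugt-16 and ugt-15 on chromosome V, ugt-18 rose in both comparisons, ugt-16 rose in flp-17oe, and ugt-15 had a log2 change of -1.32 ± 0.49 in flp-17oe against N2 that was not significant (edgeR adjusted p = 0.109). ugt-15 rests on few reads, from 1 to 15 counts per library in flp-17oe and from 9 to 27 in N2. In the group ugt-5, ugt-4, ugt-6 and ugt-3, the one called gene was ugt-6. In the pair ugt-19 and ugt-20, ugt-19 rose in flp-17oe and ugt-20 was not called. In the group ugt-11, ugt-9, ugt-8, ugt-14 and ugt-13, the called gene was ugt-13 in flp-17oe egl-6(lof), where ugt-11, ugt-9 and ugt-8 also had negative log2 changes, at -0.35, -0.33 and -0.38 (edgeR adjusted p = 0.0587, 0.0620 and 0.545), and ugt-14 had 0.11. DESeq2 called ugt-11 and ugt-9 as well. The pair ugt-43 and ugt-44 was the one group in which all members rose in both comparisons. Whether neighbours moved together was not tested. Reads of neighbouring copies that share sequence could have been split between them by the counting, so calls within these groups carry that uncertainty.

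**Figure D5:**
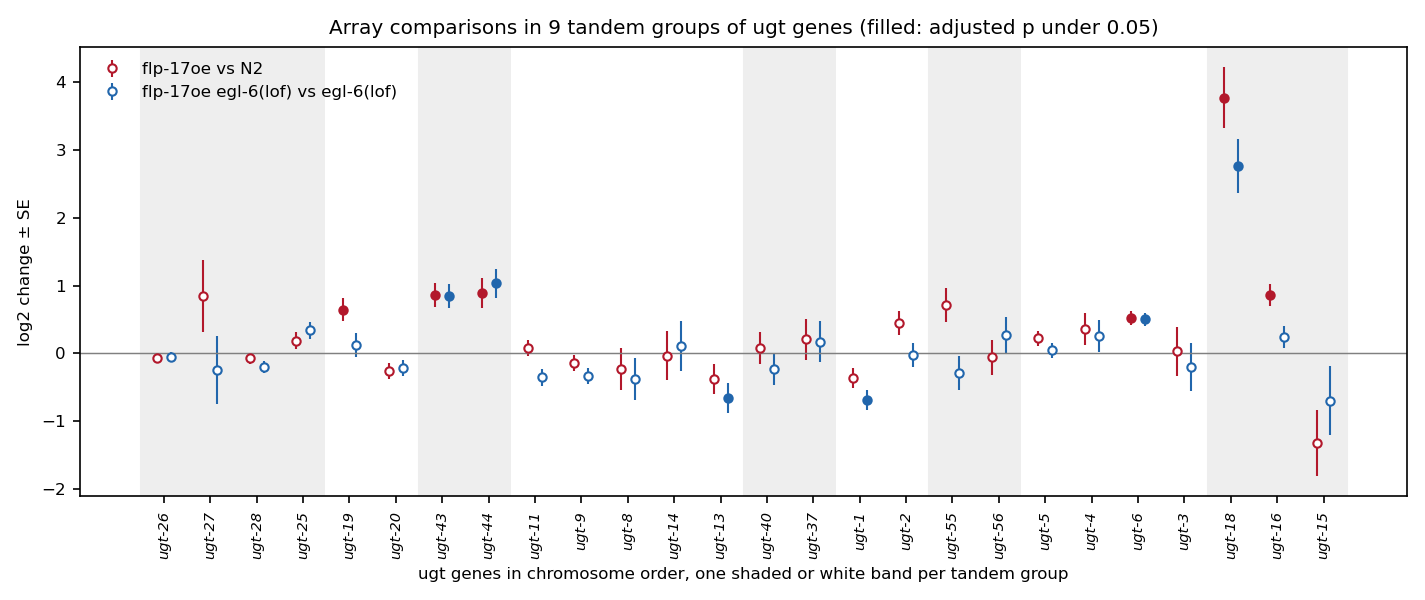
Log2 change ± SE in the 2 array comparisons for the members of the 9 tandem groups, in chromosome order with 1 band per group (red, flp-17oe against N2; blue, flp-17oe egl-6(lof) against egl-6(lof); filled points have an edgeR adjusted p under 0.05). Both points are filled and above 0 for both genes of the ugt-43 and ugt-44 band, whereas in the last band ugt-18 lies above 2 and ugt-15 below 0.

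The other comparisons called none of the 60 tested members, a count that leaves out ugt-64. Receptor loss under the array, flp-17oe egl-6(lof) compared with flp-17oe, gave 0 of 60 by edgeR, beside 1.39% of all genes, with 3 members higher and 8 lower at an unadjusted p under 0.05, beside 10.3% of all genes in either direction. The 204 genes behind the 1.39% became 73 to 130 without replicate 1, 3 or 5 of flp-17oe or replicate 2, 3 or 5 of flp-17oe egl-6(lof), and 322 without flp-17(lof) replicate 1. DESeq2 called 2 members lower in that comparison, ugt-16 and ugt-62, and its share over all genes is not given here. Its largest changes were -0.64 ± 0.25 for ugt-55, -0.55 ± 0.16 for ugt-16 and -0.46 ± 0.17 for ugt-19 on the log2 scale, and ugt-16 came nearest to the threshold of these with an edgeR adjusted p of 0.0995. ugt-55 averaged 0.367 ± 0.144 CPM in flp-17oe egl-6(lof) and 0.573 ± 0.193 CPM in flp-17oe. The comparison of egl-6(lof) with N2 gave 0 of 60 by edgeR and 0 by DESeq2, beside 0.485% of all genes, with 5 members higher and 0 lower at an unadjusted p under 0.05, a share close to the 7.66% of all genes in either direction. The 71 genes behind the 0.485% became 646 without egl-6(lof) replicate 1, 457 without N2 replicate 1 and 251 without flp-17(lof) replicate 1, and 29 to 41 without replicate 2, 3, 4 or 5 of egl-6(lof) or replicate 3, 4 or 5 of N2. The largest changes there were 0.94 ± 0.52 for ugt-18, 0.89 ± 0.43 for ugt-57 and -0.69 ± 0.46 for ugt-15. In that comparison 45 of the 60 tested members had a positive log2 change, with a median of 0.09, beside 46.6% of all genes and a median of -0.00925.

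The comparison of flp-17(lof) with N2 gave 0 of 60 by edgeR and 0 by DESeq2, beside 0.0752% of all genes, and no member had an unadjusted p under 0.05, beside 2.67% of all genes. The largest log2 changes were -0.56 ± 0.48 for ugt-57, 0.50 ± 0.55 for ugt-27 and 0.49 ± 0.32 for ugt-59. ugt-27 rests on 1 to 13 counts per library in flp-17(lof) and N2, and ugt-59 overlaps the far more abundant sir-2.1 on the opposite strand, at 78.9 CPM over all libraries for sir-2.1 and 0.295 CPM for ugt-59. The interaction of array and egl-6(lof) gave 0 of 60 by edgeR and 0 by DESeq2, beside 0.0888% of all genes. The 13 genes behind that share became 154 without egl-6(lof) replicate 1, 27 without N2 replicate 2, 25 without flp-17oe egl-6(lof) replicate 1, and 6 to 8 without any 1 of 10 other libraries. At an unadjusted p under 0.05, 7 members had a negative interaction and 0 a positive one, beside 7.34% of all genes in either direction. Of the 60 tested members 16 were positive, with a median of -0.16, beside 49.9% of all genes and a median of -0.000652. The largest were -1.09 ± 0.73 for ugt-27, -1.0 ± 0.62 for ugt-18 and -1.0 ± 0.36 for ugt-55, and the smallest edgeR adjusted p, 0.411, belonged to ugt-50.

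Other genes of detoxification changed in both directions in the array comparisons. Of 60 cytochrome P450 genes, the oxidizing enzymes, 4 rose and 5 fell in flp-17oe against N2, and 2 rose and 8 fell in flp-17oe egl-6(lof) against egl-6(lof). That is 15% and 16.7% of the P450 genes, beside 6.96% and 14.4% of all genes, so that the share in flp-17oe egl-6(lof) was near that of all genes. The P450 genes with the smallest p were cyp-14A2 at -1.01, cyp-33C8 at 0.58 and cyp-33C4 at 0.40 on the log2 scale in flp-17oe, and cyp-14A1 at -0.61, cyp-32B1 at 0.96 and cyp-35A3 at -0.96 in flp-17oe egl-6(lof). Of 41 glutathione transferase genes, which encode the other main conjugating enzymes, 5 rose and 1 fell in flp-17oe, and 4 rose and 1 fell in flp-17oe egl-6(lof), which is 14.6% and 12.2% beside the same shares of all genes. gst-24 had the largest change of those named, at 7.55 ± 1.41 CPM in flp-17oe and 1.18 ± 0.512 CPM in N2, a log2 change of 2.66 ± 0.24 (edgeR adjusted p = 1.82e-07). It averaged 11.1 ± 2.32 CPM in flp-17oe egl-6(lof) and 1.47 ± 0.300 CPM in egl-6(lof), a log2 change of 2.93 ± 0.23 (edgeR adjusted p = 3.76e-08). gst-38 had log2 changes of 1.14 ± 0.20 and 1.16 ± 0.19 in the same comparisons, gsto-1 rose by 0.69 in flp-17oe, and gst-12 fell by 0.58 in flp-17oe egl-6(lof).

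Of 30 short-chain dehydrogenase genes, 0 rose and 4 fell in flp-17oe, and 3 rose and 4 fell in flp-17oe egl-6(lof), with dhs-26, dhs-25 and dhs-18 lower in both; the shares called were 13.3% and 23.3%. Of 21 ABC exporter genes, which encode pumps that carry conjugates and drugs out of cells, 4 rose and 0 fell in flp-17oe, among them the P-glycoprotein genes pgp-3, pgp-9 and pgp-10 with log2 changes of 0.41, 0.46 and 0.56. In flp-17oe egl-6(lof) pgp-1 rose by 0.52 and pgp-13 fell by 0.68. The shares of ABC exporter genes called were 19% and 9.52%. The 5 genes that supply UDP-sugars changed in neither comparison by edgeR, and none had an unadjusted p under 0.05 there. Of 20 genes for regulators, 2 rose and 1 fell in flp-17oe, and 0 rose and 1 fell in flp-17oe egl-6(lof), which is 15% and 5%. ahr-1, the aryl hydrocarbon receptor gene, rose by 0.95 ± 0.24 in flp-17oe, at 0.440 ± 0.0572 CPM in flp-17oe and 0.228 ± 0.0158 CPM in N2 (edgeR adjusted p = 0.0147). nhr-114, a nuclear hormone receptor gene, fell by 0.29 in flp-17oe and by 0.42 in flp-17oe egl-6(lof) on the log2 scale.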

How the data were processed

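Poly(A) RNA of 25 whole-worm libraries was read as the authors' deposited raw counts per gene, which carry no normalization. Reads had been aligned with STAR 2.7.11b to ce11, per the submitters' processing notes. How reads were assigned to genes, on which annotation and with which strand setting, was not given in the sources used here, which leaves overlapping genes and near-identical copies uncertain. Columns were matched to samples by the labels.

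Genes were filtered with edgeR's filterByExpr by genotype (10 counts, 15 in total), scaled by TMM factors and fitted in all 25 libraries with terms for genotype and batch (edgeR 4.0.16, robust quasi-likelihood, R 4.3.3). Benjamini-Hochberg adjustment ran over all 14634 genes, and genes with an adjusted p under 0.05 count as changed. CPM used TMM-scaled library sizes, and SE is the size of the log2 change divided by the square root of the quasi-likelihood F. Exon lengths, positions and neighbours came from Ensembl 115. Replicates of each genotype differed by a chi-square of at least 5.36 per gene, so no library repeated another of its genotype. Libraries of different genotypes were not compared in this way. As a check of pairing, libraries were centred on the means of their genotypes. Those with the same number correlated above 0.1 in all 5 pairs only for flp-17oe egl-6(lof) and flp-17oe, from 0.133 to 0.573. The reported fit paired no genotypes, and pairing by replicate number entered only the replicate block among the alternatives. The procedure was tested on simulated data.

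Members and lists were chosen with earlier results of these data known. Named are flp-17 and egl-6, every changed member, the 6 with the highest level per kilobase, the 3 largest changes of each comparison, members nearest the count rule and, of each other list, up to 3 changed genes with the smallest p in each array comparison. The lists were cytochrome P450, glutathione transferase, short-chain dehydrogenase, ABC exporter, UDP-sugar supply and regulator genes, with markers of 6 tissues. The alternatives were size factors from DESeq2 within edgeR, DESeq2 1.42.0, omitting the count filter, requiring 10 counts throughout a genotype, dropping the batch term, a replicate block, the compared genotypes alone, and each replicate number or library left out.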

Additional observations from a re-analysis of the deposited data

Results flagged for a closer look

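In 105 groups of 5 libraries, covering the 21 changed ugt genes in the 5 genotypes, 11 had 1 library far from the others by Dixon's criterion, where chance gives about 5.2. The library flp-17(lof) replicate 1, which also had the fewest counts, was lowest by a wide gap for 3 genes. It had 4.08 CPM of ugt-19, with the other 4 libraries from 7.22 to 7.95 CPM, 52.8 CPM of ugt-22, with the others from 75.4 to 81.0 CPM, and 37.9 CPM of ugt-62, with the others from 60.8 to 65.6 CPM. In the same batch, egl-6(lof) replicate 1 was highest for ugt-19 at 8.25 CPM and for ugt-49 at 23.9 CPM, and N2 replicate 1 was highest for ugt-49 at 20.7 CPM. Replicate 1 of flp-17oe egl-6(lof) was lowest for ugt-43 at 1.86 CPM, with the others from 4.30 to 5.23 CPM.

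Replicate 2 of flp-17oe egl-6(lof) was highest for ugt-52 at 2.06 CPM and lowest for ugt-63 at 13.8 CPM, with the others from 29.0 to 30.9 CPM for ugt-63. Without that library ugt-52 was no longer called against egl-6(lof), and ugt-63 stayed called. Replicate 2 of N2 was lowest for ugt-1 at 2.13 CPM and for ugt-48 at 8.59 CPM, and without it ugt-48 was no longer called in flp-17oe.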

How the results depend on the processing

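The 27 changes called in the array comparisons kept their direction in all 37 alternatives. Of the 13 other log2 changes followed, the largest in each comparison, 8 had a value in all 37 and the rest in at least 34, and 0 changed sign. In flp-17oe against N2, 11 members were called, 10 to 14 under other tools, filters and models, 5 to 13 with a replicate number left out (5 without replicate 4 or 5) and 8 to 14 with 1 library left out. ugt-18, ugt-16, ugt-50 and ugt-6 were called in all 37. In flp-17oe egl-6(lof) against egl-6(lof), 16 were called, 11 to 19 under other settings (11 without the batch term or with the compared genotypes alone), 10 to 14 with a replicate number and 10 to 17 with 1 library left out (10 without egl-6(lof) replicate 3). ugt-18, ugt-48, ugt-6, ugt-43, ugt-44, ugt-1 and ugt-41 were called in all 37 too. With flp-17oe egl-6(lof) compared to flp-17oe, DESeq2 called 2 where edgeR called 0, with 0 to 3 when a replicate number and 0 to 2 when 1 library was left out. In egl-6(lof) against N2 the count was 0 to 2 both ways (ugt-43 and ugt-53 without N2 replicate 1). It stayed 0 for flp-17(lof) and for the interaction. The cause of these differences was not tested.

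With the replicate block in place of batch, the pairing of flp-17oe egl-6(lof) with flp-17oe again gave 0 calls. Same-numbered libraries of flp-17oe and N2 correlated at 0.0794 for replicate 3 and at 0.172 to 0.656 for the others. By the 0.1 cut used in the check these were not treated as paired either. That cut is a choice, and beyond the batch term the reported fit leaves this correlation out. The block gave 11 calls in flp-17oe against N2, of which 10 were shared, with ugt-36 lost and ugt-17 gained, and 19 in flp-17oe egl-6(lof) against egl-6(lof), the 16 together with ugt-25, ugt-28 and ugt-9.

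Of the other detoxification genes, 26 changed in flp-17oe (8 to 30 with a replicate number, 17 to 30 with 1 library left out). In flp-17oe egl-6(lof) 25 changed (14 to 33 and 24 to 31). The lists held 60, 41, 30, 21, 5 and 20 tested genes, and 6.96% and 14.4% of all genes changed. Shares per list in flp-17oe egl-6(lof) ran from 0% to 23.3%, on both sides of the 14.4%. The summed ugt level of N2 was 586 CPM, and 588 CPM with DESeq2 size factors. Depth limits members with few counts per library, ugt-33, ugt-27 and ugt-15 above all.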
